A study of Homo sapiens with 4 samples.

Results

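The immune checkpoint ligand genes are the genes through which a tumour cell restrains the lymphocytes, natural killer cells and macrophages that meet it. The 8 genes described here were CD274 (PD-L1), PDCD1LG2 (PD-L2), CD276 (B7-H3), VTCN1 (B7-H4), PVR (CD155), NECTIN2 (CD112), TNFRSF14 (HVEM) and CD47. Their peaks were taken from the ATAC-seq peak lists of HK1 cells wherever a peak overlapped the gene body or the 10 kb upstream of it. That gave 64 of the 250225 peaks in all 4 lists, which merged into 22 regions.

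HK1 is an established human nasopharyngeal carcinoma line, and ATAC-seq uses a transposase to cut and tag open DNA. The groups were WT cells without treatment (WT), WT cells given IFN-γ (WT-IFN-γ), untreated cells edited with a guide against the ETS factor gene FLI1 (sgFLI1), and edited cells given IFN-γ (sgFLI1-IFN-γ). Each group had 1 peak list, treated here as 1 library, so there was no replicate error to judge a difference between groups by, and none was tested. Which guide was used, and whether the edited cells were a clone or a pool, are not given in the sources used here, and a peak list does not check the deletion itself. Fewer edited cells and a smaller change in each of them cannot be told apart in bulk chromatin.

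There were 59629 peaks for WT cells and 67470 for those given IFN-γ, against 63203 and 59923 for edited cells. Fold and significance together give the number of DNA fragments over a summit, and the background gave a density of 8.03, 8.81, 6.93 and 6.85 fragments per kb of genome in the same order. A ratio below is that of the fragments over 2 summits after division by these densities, with a 95% interval that covers counting error only. Of 5 epithelial marker genes, EPCAM alone had a peak within 1 kb of its start, with 56, 66, 35 and 31 fragments in the 4 libraries, whereas KRT5, KRT14, TP63 and CDH1 had none in any of them. Among markers of other cells, CD14 had 14 to 32 fragments in every library, COL1A1 had 132 in sgFLI1 alone and CDH5 had 18 in WT and 17 in sgFLI1-IFN-γ, and their part in the results was not tested. PTPRC, CD3E, PDGFRB and PECAM1 had no peak there in any library.

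PD-L1 and PD-L2 bind PD-1 on T cells and lower the activity of those cells. CD274 is a classical target of IFN-γ. Motifs known from IFN-γ target genes are the GAS element (TTCNNNGAA) and pairs of GAAA cores, which the induced factor IRF1 binds. B7-H3 and B7-H4 are inhibitory members of the B7 family, CD155 and CD112 are ligands of TIGIT and of the activating receptor DNAM-1, HVEM engages BTLA and LIGHT, and CD47 gives macrophages a signal not to engulf the cell.

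The stretches of reference sequence under some of the regions that differed between libraries are printed first, since the positions of their motifs are referred to below. Capitals mark matches to an IRF motif (GAAA, any 2 bases, GAAA), to GAS or to the AP-1 motif TGACTCA, on either strand, with the IRF matches in each promoter overlapping. The CD274 sequence is the part of the RefSeq promoter (GRCh38.p14) that lies upstream of the annotated gene, at chr9:5450292-5450502 on the plus strand. It shows the IRF pair from −208 bp and the GAS that ends at −117 bp from the canonical start.
CD274 promoter: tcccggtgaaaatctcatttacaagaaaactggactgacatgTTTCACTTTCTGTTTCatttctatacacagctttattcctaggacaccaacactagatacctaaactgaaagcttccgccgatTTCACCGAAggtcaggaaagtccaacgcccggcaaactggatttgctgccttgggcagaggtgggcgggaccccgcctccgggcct
The TNFRSF14 stretch, at chr1:2556547-2556576 on the plus strand of GRCh38, lies in exon 1 and holds 2 IRF matches, between +183 and +198 bp from the canonical start, within a run of TTTCTC repeats.
TNFRSF14 promoter: gattctcTTTCTCTTTCTCTTTCtcttctg
The PDCD1LG2 sequences are windows of 201 bp round the WT promoter summit (chr9:5509724-5509924) and round the upstream summit of sgFLI1 (chr9:5500753-5500953), both on the plus strand of GRCh38. The first holds an AP-1 match and the second none of the motifs searched.
PDCD1LG2 promoter: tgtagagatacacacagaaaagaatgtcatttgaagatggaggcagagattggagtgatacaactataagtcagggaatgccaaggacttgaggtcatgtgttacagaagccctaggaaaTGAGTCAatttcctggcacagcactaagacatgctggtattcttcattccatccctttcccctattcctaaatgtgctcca
PDCD1LG2 upstream: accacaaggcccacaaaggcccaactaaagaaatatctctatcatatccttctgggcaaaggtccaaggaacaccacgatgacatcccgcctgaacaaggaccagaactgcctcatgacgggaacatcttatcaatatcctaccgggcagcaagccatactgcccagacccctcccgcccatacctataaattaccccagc
The CD276 window surrounds the intron 1 summit of sgFLI1 (chr15:73697029-73697229, plus strand, GRCh38).
CD276 intron 1: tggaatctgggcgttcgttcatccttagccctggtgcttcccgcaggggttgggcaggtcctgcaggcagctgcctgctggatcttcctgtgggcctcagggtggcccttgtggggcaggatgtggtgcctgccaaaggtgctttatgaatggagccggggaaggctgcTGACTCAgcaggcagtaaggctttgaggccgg
The VTCN1 windows surround the intron 5 summit of WT (chr1:117147332-117147532) and that of sgFLI1 (chr1:117147053-117147253), both read from the minus strand of GRCh38, on which the gene lies.
VTCN1 WT summit: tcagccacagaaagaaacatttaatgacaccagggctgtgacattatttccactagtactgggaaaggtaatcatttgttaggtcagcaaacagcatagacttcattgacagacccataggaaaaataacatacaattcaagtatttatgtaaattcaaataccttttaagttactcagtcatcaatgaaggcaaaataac
VTCN1 sgFLI1 summit: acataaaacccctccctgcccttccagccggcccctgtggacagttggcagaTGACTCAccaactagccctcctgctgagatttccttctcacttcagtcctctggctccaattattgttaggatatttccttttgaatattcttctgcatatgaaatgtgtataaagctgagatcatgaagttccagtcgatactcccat

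All 8 genes had at least 1 peak in every library. The genes together held 14 peaks in WT and 18 with IFN-γ, against 16 in sgFLI1 and 16 with IFN-γ. Of the 22 regions, 12 were listed in all 4 libraries, a share that was not computed over all regions of the lists. These 12 took in the promoters of CD274, PDCD1LG2, CD276, PVR, NECTIN2, TNFRSF14 and CD47. VTCN1 was the exception, since its promoter was listed in sgFLI1-IFN-γ alone, where 10 fragments lay 115 bp upstream of the start with a −log10 q of 3.53.

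**Figure D1:**
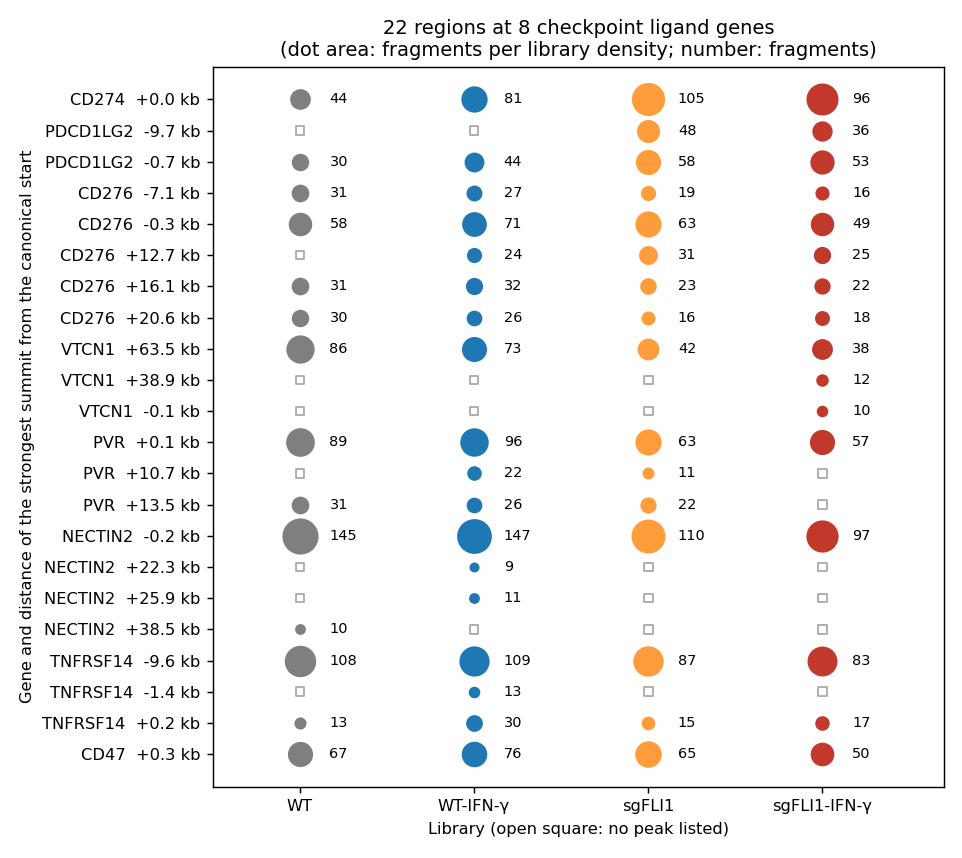
The 22 regions at the 8 genes (rows, by gene and distance of the strongest summit from the canonical start, in kb) in the 4 libraries (columns). Dot area gives fragments per library density, the number beside it the fragments over the summit, and an open square a region that was not listed. The 12 regions with a dot in every column include 7 promoters, and the PDCD1LG2 region 9.7 kb upstream has dots in the sgFLI1 columns only.

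CD274 had a promoter peak in every library. The gene lies at chr9:5450503-5470566 on the plus strand (ENSG00000120217.14), and its single region covered chr9:5449777-5451041, round the canonical start at 5450542. The summit held 44 fragments in WT and 81 with IFN-γ, against 105 in sgFLI1 and 96 with IFN-γ. WT was thus the lowest library and both edited libraries the highest, before the raised ratio on the short arm of chromosome 9 described below is allowed for. By −log10 q the peak stood at percentile 65.8 of its list in WT and 87.1 with IFN-γ, and at 92.6 in sgFLI1 and 92.7 with IFN-γ.

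In WT cells the CD274 promoter was 1.68 times as open with IFN-γ as without it (1.15 to 2.48). Only 1 of the 54 shared peaks within 5 Mb (here and below counted with the region itself) had a larger ratio, and the promoter lay at percentile 96.1 of all 45824 shared peaks, whose median ratio was 0.955. In sgFLI1 cells the corresponding ratio was 0.925 (0.694 to 1.23), at percentile 54.4 of 42507 shared peaks with a median of 0.905. The WT ratio divided by the sgFLI1 ratio was 1.81 (1.15 to 2.87), against a median of 1.06 over 36090 regions shared by all 4 libraries, and CD274 lay at percentile 95 of these. Wider counts of fragment ends in the 10 kb round the summit, which include the peak itself, were 406 in WT and 627 with IFN-γ, against 907 in sgFLI1 and 925 with IFN-γ. Divided by library density, their ratio with IFN-γ was 1.41 in WT and 1.03 in sgFLI1 cells.

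The summit of the CD274 peak also lay at different places. Untreated it was at +28 bp from the start in WT and +22 bp in sgFLI1, and with IFN-γ at −110 bp in WT and −60 bp in sgFLI1. The shift of 138 bp with IFN-γ in WT was matched or exceeded by 16.5% of all shared peaks, and the shift of 82 bp in sgFLI1 cells by 28.4%. The CD274 ratios with IFN-γ thus compare fragments at different bases. The WT-IFN-γ summit had the IRF pair and the GAS of the printed promoter within 100 bp, the sgFLI1-IFN-γ summit had the GAS alone within that distance, and the untreated summits had neither. This depends on the distance, since within 200 bp the sgFLI1-IFN-γ summit had the IRF pair too and both untreated summits had the GAS.

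**Figure D2:**
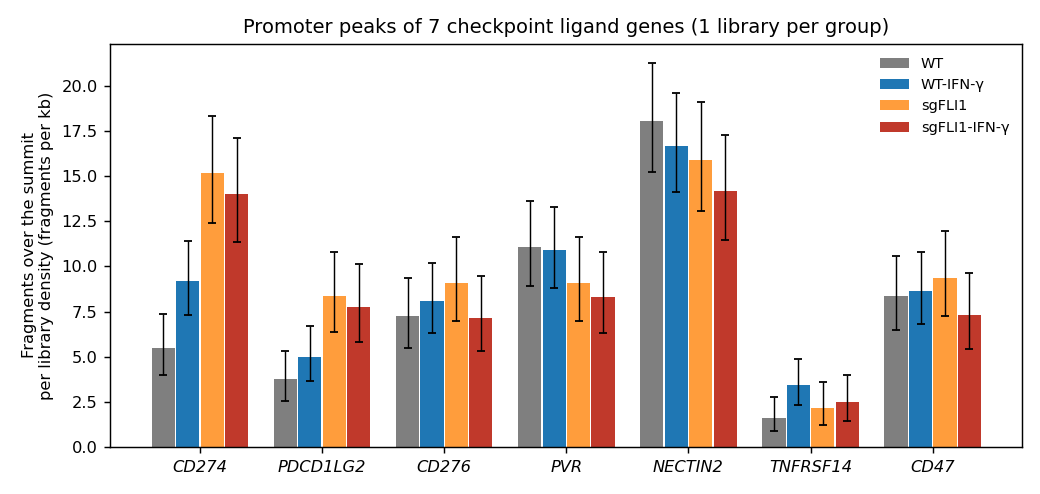
Fragments over the summit divided by library density (y axis) at the 7 promoters with a peak in every library, by library (colours). Bars start at 0 and whiskers give the 95% exact Poisson interval, which covers counting error only; CD274 is higher in WT-IFN-γ than in WT, with 81 and 44 fragments, and highest in the sgFLI1 libraries.

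The comparison of edited with WT cells at CD274 and PDCD1LG2 has to be read against the short arm of chromosome 9. Shared peaks within 5 Mb of CD274, outside the 8 genes, had a median log2 ratio of sgFLI1 to WT of 0.79 without IFN-γ (56 peaks) and 0.75 with it (53 peaks). The elevation ran along the distal part of the arm. In windows of 4 Mb with enough peaks, the median log2 ratio of untreated cells was 0.84 at 0 to 4 Mb, 0.81 at 4 to 8 Mb, 0.72 at 20 to 24 Mb and 0.50 at 24 to 28 Mb, but 0.02 at 32 to 36 Mb. With IFN-γ it was 0.80, 0.66, 0.73, 0.52 and −0.01 in the same windows. Whether DNA copy number differed between the cells was not tested.

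**Figure D3:**
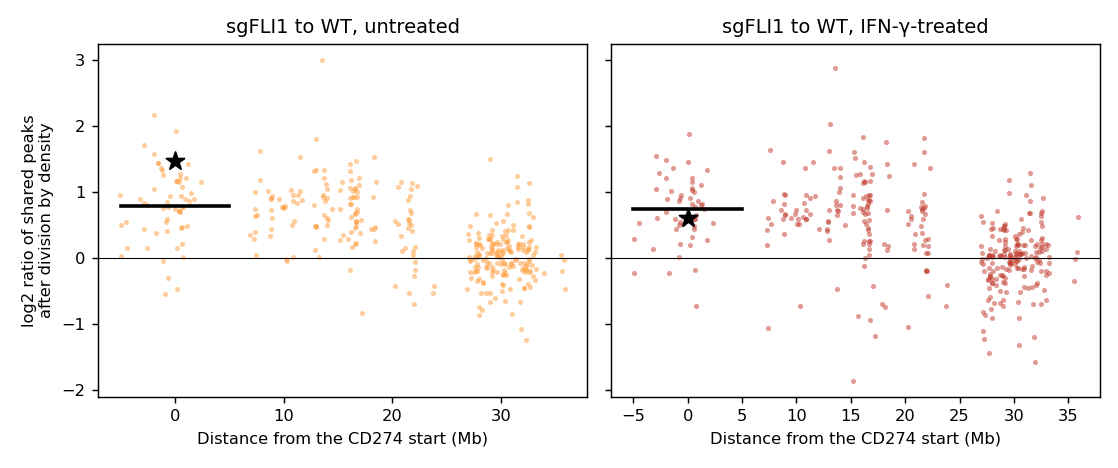
log2 ratio of sgFLI1 to WT after division by library density (y axis) for shared peaks of the short arm of chromosome 9, against distance from the CD274 start in Mb (x axis), without (left) and with IFN-γ (right). The star is the CD274 promoter and the thick line the median within 5 Mb, 0.79 on the left and 0.75 on the right; the star is above the line on the left and below it on the right.

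By library density alone, the CD274 promoter was 2.76 times as open in sgFLI1 as in WT (1.93 to 4.02) and 1.52 times as open in sgFLI1-IFN-γ as in WT-IFN-γ (1.12 to 2.07). Divided further by the median of its neighbours, the ratio was 1.60 (1.11 to 2.33) without IFN-γ, and 4 of 58 neighbouring peaks had a larger one. With IFN-γ it became 0.906 (0.667 to 1.23), a value below 1 with an interval that included 1, and 32 of 55 neighbours lay above. Dividing by the median of the whole arm, which contains the proximal part with a ratio near that of the genome, left 2.22 and 1.25. For fragment ends in the 10 kb round the summit, the ratio divided by that of the neighbours was 1.55 without IFN-γ. With IFN-γ it was 1.17, so the value below 1 was found for the summit alone.

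PDCD1LG2, the next member along the arm and in the same orientation (chr9:5510531-5571282, ENSG00000197646.8), had a promoter region at chr9:5508929-5510878 with summits between −744 and −659 bp from the start. They held 30 fragments in WT and 44 with IFN-γ, against 58 in sgFLI1 and 53 with IFN-γ, the same order of libraries as at CD274. The ratio with IFN-γ was 1.34 in WT (0.822 to 2.20) and 0.925 in sgFLI1 cells (0.625 to 1.37), and both intervals included 1. The ratio of sgFLI1 to WT was 2.24 without IFN-γ and 1.55 with it by density, and 1.27 (0.802 to 2.04) and 0.903 (0.594 to 1.38) after division by the neighbours.

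A second PDCD1LG2 region lay 9678 bp upstream, at the same base in both libraries that had it. It held 48 fragments in sgFLI1 and 36 in sgFLI1-IFN-γ, with −log10 q of 28.1 and 16.4, and was not listed in WT or WT-IFN-γ. If it followed the ratio of its neighbours it would have held 31.5 fragments in WT (23.2 to 41.7), where 10 would have sufficed for listing, and 27.0 in WT-IFN-γ (18.9 to 37.4), where 11 would have. The part of the raised 9p ratio in this difference was not tested.

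**Figure D4:**
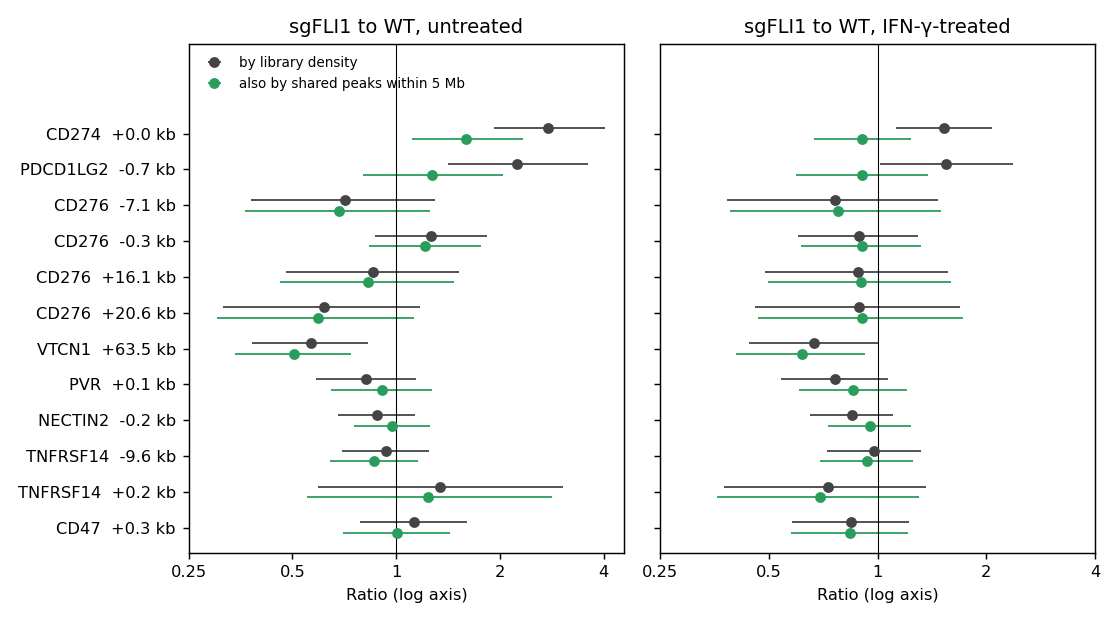
Ratio of sgFLI1 to WT (x axis, log scale) at the 12 regions listed in all 4 libraries, without (left) and with IFN-γ (right). Grey points are divided by library density and green points also by the median of shared peaks within 5 Mb, with 95% counting intervals; at CD274 the ratio goes from 2.76 to 1.60 on the left and from 1.52 to 0.906 on the right, and VTCN1 stays below 1 on both sides.

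CD276 had the most regions. It lies at chr15:73683966-73714514 on the plus strand (ENSG00000103855.18) and had 4 peaks in WT and 5 in each other library. The promoter held 58 fragments in WT and 71 with IFN-γ, against 63 in sgFLI1 and 49 with IFN-γ, with every ratio between libraries within an interval that included 1. Its summit lay at −69 bp in WT and −307 bp with IFN-γ, a shift that 7.26% of all shared peaks matched or exceeded. In sgFLI1 it lay at −312 bp and with IFN-γ at −135 bp (11.7%). These promoter ratios thus compare fragments at different bases. The upstream region 7091 bp before the start held 31, 27, 19 and 16 fragments in that order, and the intron 6 region 30, 26, 16 and 18. The intron 2 region held 31, 32, 23 and 22 fragments. The region in intron 1 (chr15:73696848-73697365), shown above, was the one that separated the libraries. Absent from the WT list, it held 24 fragments in WT cells given IFN-γ, 31 in untreated edited cells and 25 in treated ones, and at the local ratio WT would have held 23.1 (14.8 to 34.4) by the WT-IFN-γ value, where 11 would have sufficed.

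At VTCN1 the strongest region had fewer fragments in edited than in WT cells. The gene lies at chr1:117143587-117210960 on the minus strand (ENSG00000134258.18), and that region was in intron 5 of the canonical transcript, at chr1:117146636-117148415. The annotated gene start nearest to its WT summit was that of TRIM45, 25683 bp away, and which gene the region serves was not tested. The summit held 86 fragments in WT and 73 in WT-IFN-γ, but 42 in sgFLI1 and 38 in sgFLI1-IFN-γ. Both edited libraries were therefore below both WT libraries. The ratio of sgFLI1 to WT was 0.566 (0.381 to 0.827) without IFN-γ and 0.669 (0.440 to 1.004) with it, and 0.506 (0.342 to 0.741) and 0.617 (0.406 to 0.925) after division by the neighbours. Of 160 neighbouring peaks without IFN-γ, 154 had a larger ratio, and with IFN-γ 149 of 162. The counts of fragment ends in the surrounding 10 kb were lower in the same libraries, with 857 in WT and 869 with IFN-γ, against 373 in sgFLI1 and 334 with IFN-γ. Divided by library density, the ratio of these ends in sgFLI1 to WT was 0.504 without IFN-γ and 0.494 with it. The summit was 63495 bp from the start in WT and 63774 bp in both edited libraries, a shift of 279 bp without IFN-γ that 5.76% of all shared peaks matched or exceeded. The ratios of edited to WT cells at this region thus compare fragments at different bases. The WT window shown above was 34.3% G and C, and the sgFLI1 window was 45.8% and held an AP-1 match. With IFN-γ the region had a ratio of 0.774 in WT (0.558 to 1.07) and 0.915 in sgFLI1 cells (0.574 to 1.45). A further weak region in intron 1 held 12 fragments, in sgFLI1-IFN-γ alone.

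The TIGIT ligand genes lie near each other on the long arm of chromosome 19, PVR at chr19:44643798-44666162 (ENSG00000073008.16) and NECTIN2 at chr19:44846175-44889223 (ENSG00000130202.10). NECTIN2 had more fragments over its promoter than any other of the 8 genes in every library, with 145 fragments in WT and 147 with IFN-γ, against 110 in sgFLI1 and 97 with IFN-γ and the summit at the same base in every library. Its 4 ratios ran from 0.848 to 0.924, and each interval included 1. The PVR promoter held 89, 96, 63 and 57 fragments in the same order, with 4 ratios from 0.763 to 0.983 and intervals that again included 1. In intron 4 of PVR, 13483 bp from the start, 31 fragments in WT, 26 in WT-IFN-γ and 22 in sgFLI1 formed a region that was not listed in sgFLI1-IFN-γ, where 20.1 (12.6 to 30.4) would have been held at the local ratio to sgFLI1 and 9 would have sufficed. A second intron 4 region was listed with 22 fragments in WT-IFN-γ and with 11 in sgFLI1, but not in the other libraries. The 3 intronic regions of NECTIN2 each stood in 1 list only, with 9 and 11 fragments in WT-IFN-γ and 10 in WT, near the limit of 8 at which these lists begin.

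TNFRSF14 lies at chr1:2555639-2565382 on the plus strand (ENSG00000157873.18). Its strongest region was upstream, between −9820 and −9616 bp from the start, with 108 fragments in WT and 109 with IFN-γ, against 87 in sgFLI1 and 83 with IFN-γ, and its ratio with IFN-γ was 0.920 in WT and 0.965 in sgFLI1 cells. The promoter was weak, and it was here that WT-IFN-γ stood apart. It held 13 fragments in WT and 30 with IFN-γ, against 15 in sgFLI1 and 17 with IFN-γ. Its −log10 q was 2.20 in WT, at percentile 3.24 of that list, and 11.2 in WT-IFN-γ. In sgFLI1 it was 3.29 and in sgFLI1-IFN-γ 4.48. The ratio with IFN-γ was 2.10 in WT (1.06 to 4.39), above all but 1 of 216 neighbours, and 1.15 in sgFLI1 cells (0.539 to 2.47). The ratio between these, 1.83, had an interval of 0.708 to 4.75 that included 1. The summit moved from −248 bp in WT to +232 bp in WT-IFN-γ, counted from the start, a shift of 480 bp that 1.88% of all shared peaks matched or exceeded. In edited cells it lay at +2 bp without and −30 bp with IFN-γ. The WT peak ended at chr1:2556374, short of the WT-IFN-γ summit at chr1:2556603, so the WT ratio compares fragments at different bases. The IRF matches shown above were within 100 bp of the WT-IFN-γ summit and of no other summit of this promoter, but within 200 bp of the sgFLI1 summit as well. A further upstream region held 13 fragments in WT-IFN-γ alone, where its −log10 q was 1.41.

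CD47, at chr3:108043091-108091862 on the minus strand (ENSG00000196776.17), had its promoter region alone. The summit held 67 fragments in WT and 76 with IFN-γ, against 65 in sgFLI1 and 50 with IFN-γ. Its ratio with IFN-γ was 1.03 in WT (0.734 to 1.46) and 0.778 in sgFLI1 cells (0.527 to 1.14), and the ratios of edited to WT cells were 1.12 and 0.846, all with intervals that included 1.

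**Figure D5:**
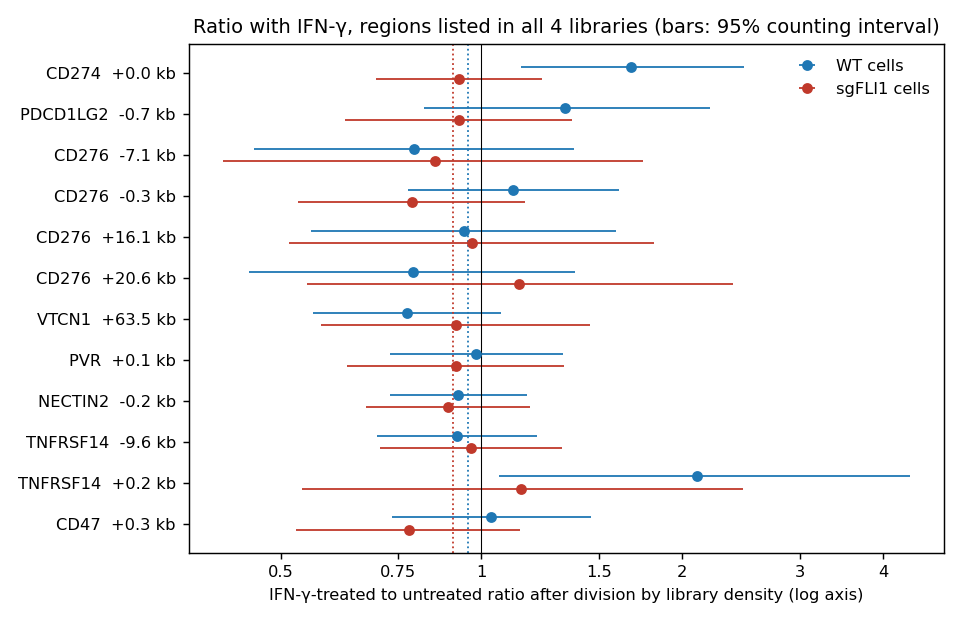
Ratio of IFN-γ-treated to untreated cells after division by library density (x axis, log scale) at the 12 regions listed in all 4 libraries, in WT (blue) and sgFLI1 cells (red), with 95% counting intervals. Dotted lines are the medians over all shared peaks, 0.955 in WT and 0.905 in sgFLI1; the intervals of CD274 and TNFRSF14 in WT lie above 1 and all others include it.

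The counts of gained and lost peaks at the 8 genes are given beside the share over all peaks, from which several differ by about 1 peak or less. In WT, 5 of the 18 peaks listed with IFN-γ had no overlap in the untreated list, or 27.8%, against 25.2% of all peaks. They lay at CD276, PVR, NECTIN2 (2 peaks) and TNFRSF14. Of the 14 untreated peaks, 1, at NECTIN2, was not listed with IFN-γ, against 15.9% of all. In sgFLI1 cells 2 of 16 peaks were gained with IFN-γ, both at VTCN1 (background 18.0%), and 2 of 16 were lost, both at PVR (background 22.2%). Between the untreated libraries, 3 of 16 sgFLI1 peaks were absent from WT (background 25.3%), at PDCD1LG2, CD276 and PVR, and 1 of 14 WT peaks was absent from sgFLI1 (background 21.4%). Between the treated libraries, 3 of 16 peaks of sgFLI1-IFN-γ were absent from WT-IFN-γ (background 19.8%), and 5 of 18 were absent the other way (background 29.0%). The comparisons share libraries and are not independent of each other.

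Among regions in both lists, 2 of 13 had a ratio of at least 1.5 with IFN-γ in WT, the CD274 and TNFRSF14 promoters, against 6.33% of all shared peaks, and 0 of 13 had a ratio of at most 1/1.5, against 6.83%. In sgFLI1 cells 0 of 14 passed either limit (2.04% and 6.45% of all). For sgFLI1 to WT, 2 of 13 passed upwards, CD274 and PDCD1LG2 (12.6% of all), and 2 downwards, VTCN1 intron 5 and CD276 intron 6 (8.49%). After division by the neighbours only CD274 stayed above the upper limit and the 2 lower regions stayed below theirs. The CD276 intron 6 ratio, from 16 and 30 fragments, was 0.618 (0.314 to 1.17) by density and 0.595 (0.303 to 1.13) after that division. Both of its intervals included 1. For sgFLI1-IFN-γ to WT-IFN-γ, CD274 and PDCD1LG2 passed upwards (9.84% of all) and 0 downwards (11.3%), whereas after division by the neighbours 0 passed upwards and VTCN1 passed downwards.

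Motifs were then counted within 100 bp of the summit. IRF matches stood in 2 of 18 WT-IFN-γ member peaks, against 5.60% of all peaks of that list, and in 0 of 14 in WT (2.35% of all), 0 of 16 in sgFLI1 (2.24%) and 0 of 16 in sgFLI1-IFN-γ (2.67%). GAS stood in 1 member peak in WT (5.89% of all) and 2 with IFN-γ (6.89%), and in 0 in sgFLI1 (5.57%) and 1 with IFN-γ (6.03%). In the same order AP-1 stood in 1, 4, 4 and 5 member peaks (17.8%, 19.1%, 20.2% and 19.1% of all). Within 200 bp, IRF stood in 0, 2, 1 and 1 member peaks of these lists. The ETS motif CCGGAAGT was found in none of the member windows (1.28% to 1.42% of all). Of 35116 RefSeq promoters of 300 bp, 3.57% held an IRF match, 7.66% a GAS, 4.14% the ETS motif and 4.95% AP-1, and CD274 was the only member whose entry held IRF or GAS. PDCD1LG2 had no entry there.

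A further 22 genes of checkpoint ligands and co-signalling partners gave 51 peaks in WT and 59 with IFN-γ, against 55 in sgFLI1 and 49 with IFN-γ. With IFN-γ, 8 of the 22 (36.4%) had a region gained in WT, against 32.0% of all protein-coding genes, and 7 (31.8%) a region lost, against 21.5%. In sgFLI1 cells 6 (27.3%) had a region gained, against 22.9%, and 9 (40.9%) a region lost, against 28.0%. Among the 8 ligand genes, beside the same shares of all genes, the corresponding numbers were 4 of 8 and 1 of 8 in WT. In sgFLI1 cells they were 1 of 8 and 1 of 8. Gene length was not allowed for, and it ran up to 246 kb (IGSF11) among the 22 genes and 67.4 kb (VTCN1) among the 8. Intron 1 of TNFSF18, which encodes the ligand of GITR, had a region of 39 fragments in WT-IFN-γ and 13 in sgFLI1-IFN-γ that was in neither untreated list. Intron 2 of CD86, a ligand of CD28 and CTLA-4, likewise held 30 and 11 fragments in the treated lists alone. An IGSF11 intron 1 region did so with 25 and 8 fragments, and a second with 15 and 19. Regions gained in WT and not listed in either sgFLI1 library were at CEACAM1 (17 fragments), CD200 (14), CD70 (33) and NECTIN1 (38). Their −log10 q in WT-IFN-γ was 8.31, 5.75, 6.51 and 5.33 in that order, against 18.5 for the CD86 region. A second NECTIN1 region with 39 fragments was also in sgFLI1. Regions lost with IFN-γ in WT held 26 fragments at CEACAM1, 22 at TNFSF18, 18 at IGSF11, 35 at CD24 and 17 at CD48, and those of TNFSF18, CD24 and CD48 were listed in both sgFLI1 libraries.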

How the data were processed

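ATAC-seq peak lists of HK1 cells in 4 groups, with 1 list each that was treated as 1 library, were used. According to its methods, trimming was by Trimmomatic and alignment to GRCh38 by Bowtie2 2.3.4.1, after which the authors discarded low-quality alignments and duplicates and called peaks with MACS2 2.1.2. Whether a list comes from 1 replicate or from pooled ones, and from before or after a reproducibility filter, is not given in the sources used here. The deposited columns are a score, a fold enrichment (a ratio), −log10 p and −log10 q values as MACS writes them, and the summit offset.

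Fragments over each summit and their local background were recovered from the fold and −log10 p (100% of peaks in each list). Multiples in the local backgrounds gave the mean fragment length, 275 bp in WT and 250 bp with IFN-γ, 259 bp in sgFLI1 and 255 bp with IFN-γ, and hence the density. An overlap of 1 bp made peaks shared. The ratios over all shared peaks used peaks that overlapped pairwise without others, with 30 or more fragments together. Ratios of the 8 genes were taken for every region listed in both libraries. The ratio of sgFLI1 to WT at the TNFRSF14 promoter, from 15 and 13 fragments, was below that limit. Genes came from GENCODE. The promoter was the region with a summit within 3 kb of the canonical start, or the one with the most fragments where several had such a summit. Named were the 8 genes, their promoters, each region gained or lost with −log10 q of at least 5 and the strongest other region, and of the other genes those gained or lost in WT at that limit; weaker regions were added so that every member is accounted for. A marker gene of the fixed list is not reported here. Steps were tested on simulated data. The genes and lists were chosen with earlier results of these data known. Python 3.11.15 was used, with scipy 1.17.1 for intervals, numpy 2.4.6, matplotlib 3.10.9 and pandas 2.3.3.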

Additional observations from a re-analysis of the deposited data

Results flagged for a closer look

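The following results are given because, after division by library density, the ratio with IFN-γ lay on opposite sides of 1 in WT and sgFLI1 cells. With 1 library in each group the difference was not tested, and the interval of each ratio in sgFLI1 cells included 1. For the CD274 promoter the IFN-γ ratio was 1.68 in WT and 0.925 in sgFLI1 cells, a quotient of 1.81, but the latter was 1.02 when divided by the median of all shared peaks, so no movement in sgFLI1 cells is shown. For the PDCD1LG2 promoter the ratios were 1.34 and 0.925 (quotient 1.45, interval 0.797 to 2.62), and the latter likewise became 1.02. For the CD276 promoter they were 1.12 and 0.787 (quotient 1.42, interval 0.852 to 2.36). The intron 6 region of CD276 had the opposite order, with 0.790 and 1.14 (quotient 0.694, interval 0.295 to 1.63). For the CD47 promoter they were 1.03 and 0.778 (quotient 1.33, interval 0.811 to 2.18). Of these 5 quotients, that of CD274 alone had an interval above 1. PVR gained 1 peak in WT with IFN-γ and had 2 fewer in sgFLI1 cells, a difference of 3 peaks. Of the peaks lost in sgFLI1 cells, 1 held 11 fragments with a −log10 q of 2.70. At the local ratio it would have held 10.0 (5.01 to 18.0) in sgFLI1-IFN-γ, where 9 would have sufficed, so its absence rests on few fragments. How many of all genes change in opposite directions was not counted.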

How the results depend on the processing

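Of 228 recomputed values, 188 stayed within 1.5 times the count or within the counting interval, 38 moved and 2 turned. A ratio was called turned only if its interval excluded 1 and the new value lay across 1. Ratios whose interval included 1 could cross it and still count as unmoved. At CD47 the ratio of sgFLI1 to WT so went from 1.12 to 0.975 when divided by the arm. The IFN-γ ratio of CD274 in sgFLI1 cells went from 0.925 to 1.02 when divided by all shared peaks. Divided by shared peaks within 5 Mb, the ratio of sgFLI1 to WT without IFN-γ moved from 2.76 to 1.60 at CD274 and from 2.24 to 1.27 at PDCD1LG2. With IFN-γ it turned from 1.52 to 0.906 and from 1.55 to 0.903, though the intervals of both new values included 1. Every other promoter ratio stayed within its own counting interval under all 4 scalings, though some crossed 1. With −log10 q of at least 5, gained regions were 3 in WT and 1 in sgFLI1 cells, lost ones were 0 and 1, those lost from WT to sgFLI1 were 0 and those lost from WT-IFN-γ to sgFLI1-IFN-γ were 3, and of the other 22 genes 1 gained and 3 lost a region in sgFLI1 cells. At 10 or more, sgFLI1-IFN-γ kept 10 peaks, gained regions were 1 and 0, those lost with IFN-γ in WT were 0 and those lost from WT to sgFLI1 were 2. The last was also 2 when the summit had to lie inside the other list's peak. With 50 kb upstream the libraries had 27, 32, 31 and 30 peaks (WT, WT-IFN-γ, sgFLI1, sgFLI1-IFN-γ), gains and losses with IFN-γ were 8 and 3 in WT and 5 and 6 in sgFLI1 cells, those of sgFLI1 against WT were 7 and 3, and gains of sgFLI1-IFN-γ against WT-IFN-γ were 5. Of the motif counts, 6 moved within 50 bp of the summit and 5 within 200 bp: IRF went from 2 to 1 in WT-IFN-γ at 50 bp and from 0 to 1 in each sgFLI1 library at 200 bp, and the others were GAS and AP-1 counts. Thinning to the shallowest library (21 draws) moved no count past 1.5 times. Shares over all peaks were not recomputed for the changed q limits, upstream distances and overlap rules, so those gained and lost counts have no background beside them. The causes were not tested. No paired analysis was possible because each group had 1 library and the results come from no test. Leaving out a library would leave its group empty. Depth limits regions near 8 fragments, where presence in a list is decided by a few fragments.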
